A study of Mus musculus with 45 samples.

Results

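The ErbB receptor genes *Egfr*, *Erbb2*, *Erbb3* and *Erbb4* and the EGF-like ligand genes *Egf*, *Tgfa*, *Areg*, *Ereg*, *Hbegf* and *Btc* were followed as 10 of the 54838 genes counted in mouse mammary tumour cell lines. They were chosen by name, matched through their Ensembl identifiers, and all 10 were in the table. RNA was sequenced from 15 *PyMT*+ lines, which carry the polyomavirus middle T antigen, with 3 technical repeats per line and 45 libraries in all. The parental lines YEJG and YEJH came from primary tumours of the mammary gland. YEJG gave 1 line from a fat-pad tumour (YEJG-FP) and 2 lines from lung (YEJG-M1 and YEJG-M2). YEJH gave 5 fat-pad lines (YEJH-FP1 to YEJH-FP5) and 5 lung lines (YEJH-M1 to YEJH-M5). The study describes the lung lines as lines of lung micrometastases, which arose after the primary tumour was resected. The labels call YEJH-M3 lung metastases and the other lung lines whole lung. All lines were grown in dishes and lysed the day after plating, and the labels give no treatment. *PyMT*+ cells come, per the study's methods, from mammary tumours of MMTV-*PyMT* mice, in which the mouse mammary tumour virus promoter drives the oncogene. The study calls the lines of its comparison independent lines from separate mice. Which mouse gave which line, and whether a line is a clone, are not given in the sources used here. The sole YEJG fat-pad line and both parental lines had no replicate line, so technical repeats were summed and the line was the unit of every test.

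ErbB receptors are cell-surface tyrosine kinases that pair up when a ligand binds and then signal through the RAS-ERK and PI3K-AKT pathways. EGF, TGFα and amphiregulin bind EGFR, whereas betacellulin, epiregulin and HB-EGF bind EGFR and ERBB4. ERBB2 binds no known EGF-like ligand and acts as a partner, and ERBB3 is a weak kinase that binds neuregulins and recruits PI3K. The ligands are made as membrane proteins and are released by sheddases, and in the mammary gland amphiregulin is known for its part in duct growth.

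Library depth ran from 9723860 to 16943900 reads on genes. Values for single lines are given as normalised counts, which are reads scaled to a common library size and averaged over the 3 repeats. For levels that are set against each other between genes, RPKM was used, which divides by exon length. Markers of mammary epithelium (6 genes) summed to 3592 to 10370 CPM (reads scaled to a common total) per line. The lung epithelial genes *Sftpc* and *Sftpb*, the T-cell gene *Cd3e* and the fibroblast gene *Lum* were at 0 reads in every library, while other genes of these lists were present, with up to 53.3 CPM for *Foxj1*, 42.1 for *Pdgfra*, 5.91 for *Col3a1* and 5.11 for *S100a8*. The library of repeat 1 of YEJG-M1 has a library name with YEJH-M1 in it, and its title decided where it was placed. Its *Egfr* value was 463 normalised counts, beside 498 and 507 in the other repeats of YEJG-M1 and 1403 to 1580 in the repeats of YEJH-M1.

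*Erbb2* and *Erbb3* were the receptor genes with the highest levels per length. Over the 15 lines the mean was 11.6 ± 1.94 RPKM for *Erbb2* (SD, n = 15 lines), 11.1 ± 3.34 RPKM for *Erbb3* (SD, n = 15 lines) and 7.78 ± 2.10 RPKM for *Egfr* (SD, n = 15 lines). *Erbb2* and *Erbb3* lay close together in most lines, and which of them came first in a line depended in part on the length used. *Erbb4*, a receptor for neuregulins and some EGF-like ligands, was close to absent, with 1 read in all 45 libraries, found in YEJH-M1. The 44 libraries with 0 reads allow up to 3 reads each, or 0.177 to 0.309 CPM, a limit that covers counting error only. *Erbb4* was therefore the gene that did not pass the filter on low counts, and 9 of the 10 genes were tested in each comparison.

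Among the ligands, *Areg* made up 66.7% to 75.4% of the summed ligand RPKM in every line. Its level averaged 176.6 ± 38.0 RPKM (SD, n = 15 lines). *Hbegf* followed with 32.3 ± 3.13 RPKM, *Ereg* with 21.5 ± 4.71 RPKM and *Tgfa* with 11.4 ± 3.06 RPKM (SD, n = 15 lines each). *Btc* had 3.06 ± 0.927 RPKM (SD, n = 15 lines), and *Egf* was lowest with 0.0402 ± 0.0234 RPKM (SD, n = 15 lines). This order of 6 ligands held in 14 of 15 lines, and in YEJH-M1 *Tgfa* lay above *Ereg*. With the length of the canonical transcript in place of all exons the order held in 12 of 15 lines, and *Tgfa* lay above *Ereg* in the other 3. The share of *Areg* depends on this choice too. *Hbegf* has 5111 bases over all exons and 2382 in the canonical transcript, whereas *Areg* has 1222 in both. The share by canonical length was not computed. *Egf* rested on 1 to 22 reads per library, so its counting error was large. The library kit does not mark strand, and reads from a gene and an antisense neighbour cannot be told apart. Exons of *Ereg* share 3.89% of their bases with the antisense RNA gene *Gm19610*, which had 234 reads in all libraries, and 16.3% of *Hbegf* exon bases lie under *Gm41698*, which was not analysed here.

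**Figure D1:**
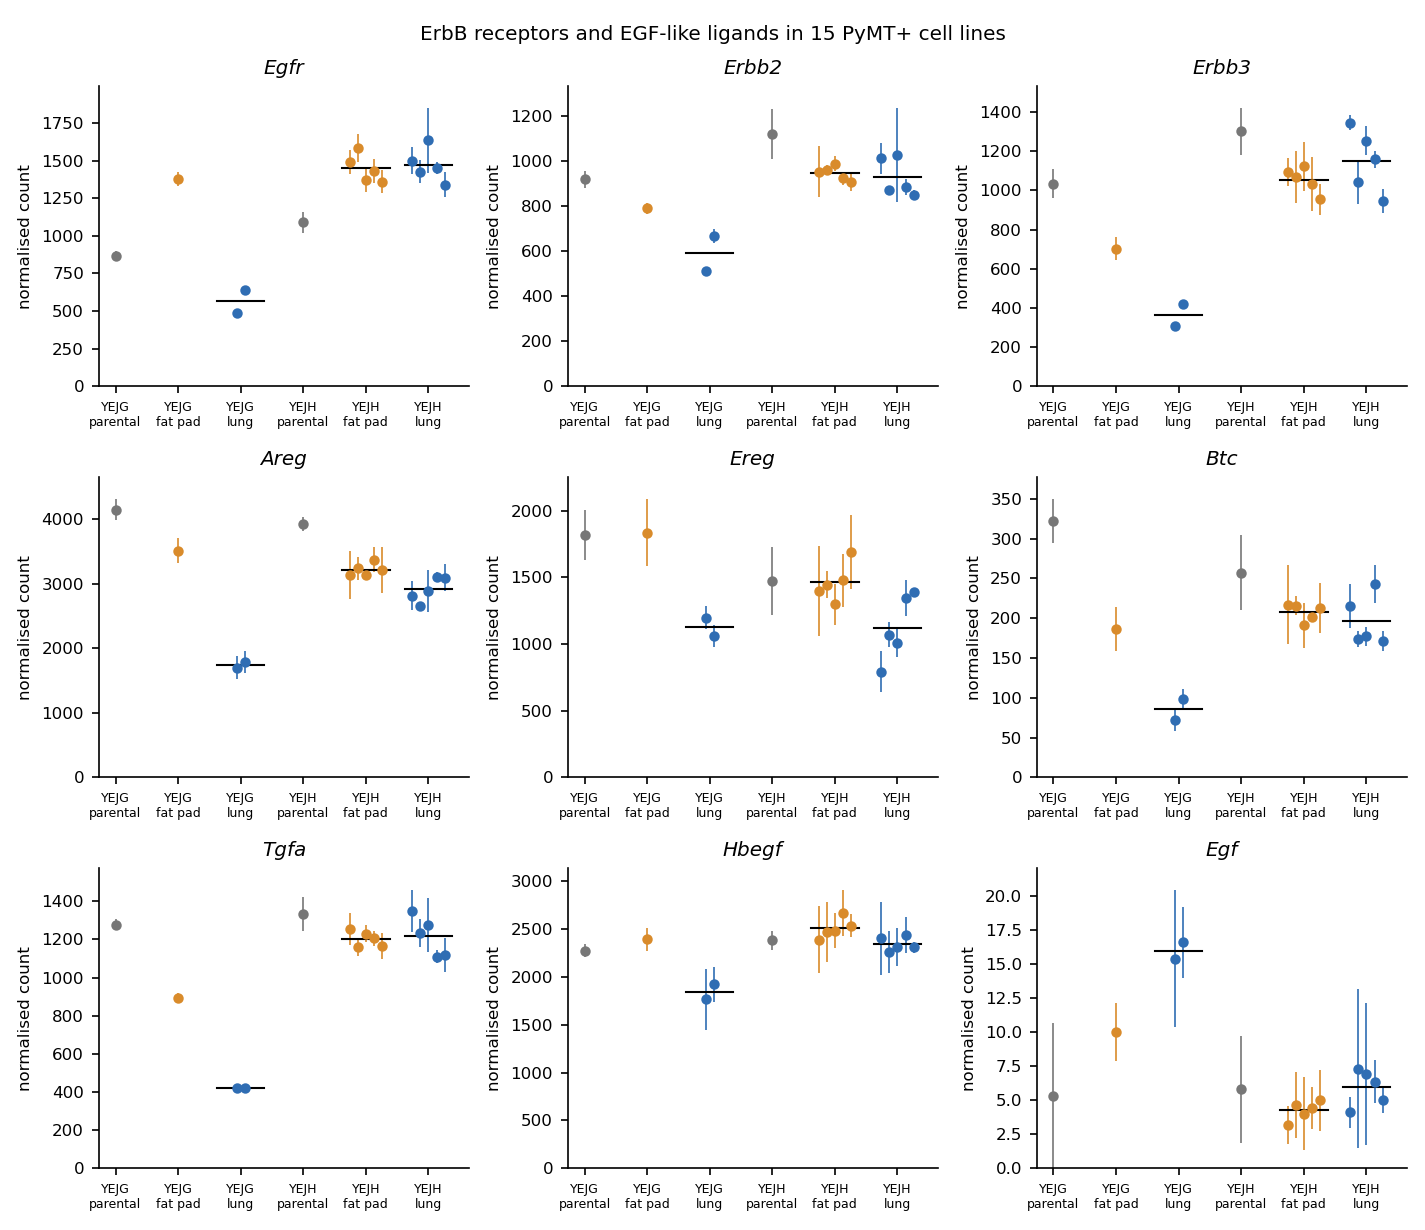
Normalised counts (y axis, linear from 0) of the 9 tested genes in the 6 groups of lines (x axis). Each point is 1 line with the SD of its 3 technical repeats, horizontal bars are group means over lines, and colours mark parental (grey), fat-pad (orange) and lung (blue) lines. The YEJG lung lines lay below the other 13 lines for 7 genes, above them for *Egf*, and among them for *Ereg*.

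The pair of YEJG lung lines stood apart from the other 13 lines for 8 of the 9 tested genes. They lay below all other lines for *Egfr*, *Erbb2*, *Erbb3*, *Tgfa*, *Areg*, *Hbegf* and *Btc*, and above all others for *Egf*. Of all 16361 genes tested over the 15 lines, 29.5% had both YEJG lung lines outside the range of the others, 14.5% below it and 15% above it. Many other genes therefore separated these lines in the same way. In RNA from whole cultures, fewer cells that express a gene and less RNA per cell cannot be told apart.

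On GRCm39 *Egfr* spans 16702198 to 16868158 and *Erbb2* 98303203 to 98328542 on chromosome 11, *Erbb3* spans 128403392 to 128425811 on chromosome 10, and *Tgfa* spans 86172041 to 86252728 on chromosome 6. *Egfr* was at 490 and 640 normalised counts in YEJG-M1 and YEJG-M2. The parental lines followed with 867 in YEJG and 1089 in YEJH. YEJG-FP reached 1377, within the range of the 5 YEJH fat-pad lines (1361 to 1583) and beside the 5 YEJH lung lines (1341 to 1634). The lung lines of the 2 origins did not overlap, and the YEJH-derived lines of both sites could not be ordered beyond their spread.

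*Erbb2* showed a narrower range, from 512 in YEJG-M1 and 666 in YEJG-M2 to 1119 in parental YEJH. YEJG-FP had 789, and the 10 YEJH-derived lines had 847 to 1024. For *Erbb3* the YEJG lung lines had 305 and 420 normalised counts, YEJG-FP had 702.5 and parental YEJG had 1035. The YEJH-derived lines ranged from 945 to 1345, and parental YEJH had 1301. For both genes YEJG-FP lay between the YEJG lung lines and all YEJH-derived lines, without overlap.

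*Tgfa* was at 424 and 419 normalised counts in the YEJG lung lines and at 894.5 in YEJG-FP. Every other line, parental lines included, lay between 1110 and 1348. *Btc* was at 72.5 and 98.1 in the YEJG lung lines, at 186 in YEJG-FP and at 171 to 243 in the YEJH-derived lines. The parental lines had the highest *Btc* levels, 322 in YEJG and 257 in YEJH.

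The amphiregulin gene *Areg* had 1696 and 1790 normalised counts in the YEJG lung lines. YEJH lung lines had 2656 to 3108, YEJH fat-pad lines 3139 to 3369 and YEJG-FP 3512. Parental YEJH and YEJG were highest with 3923 and 4148. *Hbegf*, the second ligand by level, varied least of the 9 genes over the 15 lines, with a coefficient of variation of 9.68%. It had 1765 and 1925 in the YEJG lung lines and 2261 to 2664 elsewhere.

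*Ereg* and *Egf* followed other patterns. *Ereg* was at 1197 and 1059 normalised counts in the YEJG lung lines, inside the 791 to 1387 of the YEJH lung lines. YEJG-FP and parental YEJG had the highest *Ereg* values, 1835 and 1815. *Egf* had 15.4 and 16.6 normalised counts in the YEJG lung lines and 10.0 in YEJG-FP, whereas the other 12 lines had 3.20 to 7.32. These were 46 and 53 reads in the YEJG lung lines, 29 in YEJG-FP, and 9 to 23 in each of the other lines.

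**Figure D2:**
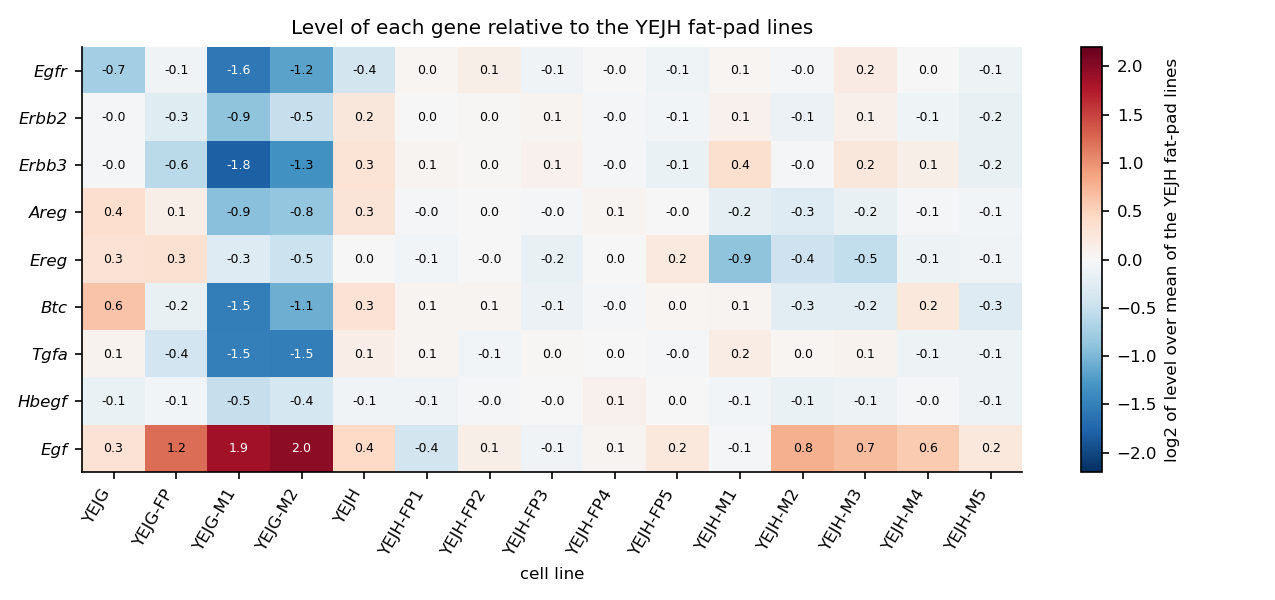
Log2 ratio of each gene's normalised count (rows) in each of the 15 lines (columns) to the mean of the 5 YEJH fat-pad lines, on a scale from blue (lower) to red (higher). The YEJG-M1 and YEJG-M2 columns are blue for 8 genes, most for *Erbb3* in YEJG-M1 (-1.79) and *Tgfa* in YEJG-M2 (-1.52) and least for *Ereg* in YEJG-M1 (-0.29) and *Hbegf* in YEJG-M2 (-0.38), and red for *Egf*. Among the YEJH columns the lowest value is *Ereg* in YEJH-M1 (-0.89).

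Lines from lung were then compared with lines from the fat pad within the study's question of how these sites differ, 7 lines against 6. None of the 9 tested genes differed at an adjusted p under 0.05 (edgeR quasi-likelihood test), and neither did any of the 15056 genes, a share of 0.00%. At an unadjusted p under 0.05 there were 784 genes (5.21%), and 3 of the 9 were among them. The Wald test of DESeq2 called 22 genes, and limma with the libraries kept apart called 82, none of them a receptor or ligand gene of this set.

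The 3 genes with an unadjusted p under 0.05 were all ligands with lower levels in lung lines. *Ereg* averaged 1122 ± 206 normalised counts in lung lines (SD, n = 7) and 1524 ± 199.9 in fat-pad lines (SD, n = 6), with a log2 difference of -0.45 (SE 0.12, edgeR unadjusted p = 0.0023, adjusted p = 0.909). It ranked 31 of 15056 genes by p. The highest lung lines, YEJH-M4 and YEJH-M5 with 1345 and 1387, overlapped the lowest fat-pad line, YEJH-FP3 with 1298. Within the YEJH-derived lines alone the log2 difference of *Ereg* was -0.39 (SE 0.13, edgeR adjusted p = 0.443). By the date in the library name it was -0.40 for libraries of the first date and -0.47 for those of the second.

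*Areg* averaged 2578 ± 592 normalised counts in lung lines (SD, n = 7) and 3268 ± 146 in fat-pad lines (SD, n = 6), a log2 difference of -0.35 (SE 0.14, edgeR unadjusted p = 0.025, adjusted p = 0.909). Every lung line lay below every fat-pad line. Sites without overlap, in either direction, were found for 1 of the 9 genes and for 0.251% of all genes. The nearest lines were YEJH-M4 with 3108 and YEJH-FP1 with 3139, closer than the median SD of 183.7 between technical repeats of a line. In the YEJH-derived lines alone the difference was -0.15 (SE 0.046, adjusted p = 0.360), and again *Areg* was the 1 gene of 9 without overlap, beside 1.96% of all genes. *Hbegf* had a log2 difference of -0.19 (SE 0.074, edgeR unadjusted p = 0.026, adjusted p = 0.909). Its groups overlapped.

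The receptor genes gave no difference between sites beyond the spread of lines. The log2 difference was -0.26 (SE 0.24) for *Egfr*, -0.16 (SE 0.13) for *Erbb2* and -0.12 (SE 0.30) for *Erbb3*. In the 10 YEJH-derived lines it was 0.0086 (SE 0.055) for *Egfr* and 0.11 (SE 0.088) for *Erbb3*, both with the sign turned. *Tgfa* turned in the same way, from -0.23 (SE 0.26) over all derived lines to 0.0088 (SE 0.052) within YEJH. *Btc* had -0.32 (SE 0.23) and *Egf* 0.75 (SE 0.38) over all derived lines.

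**Figure D3:**
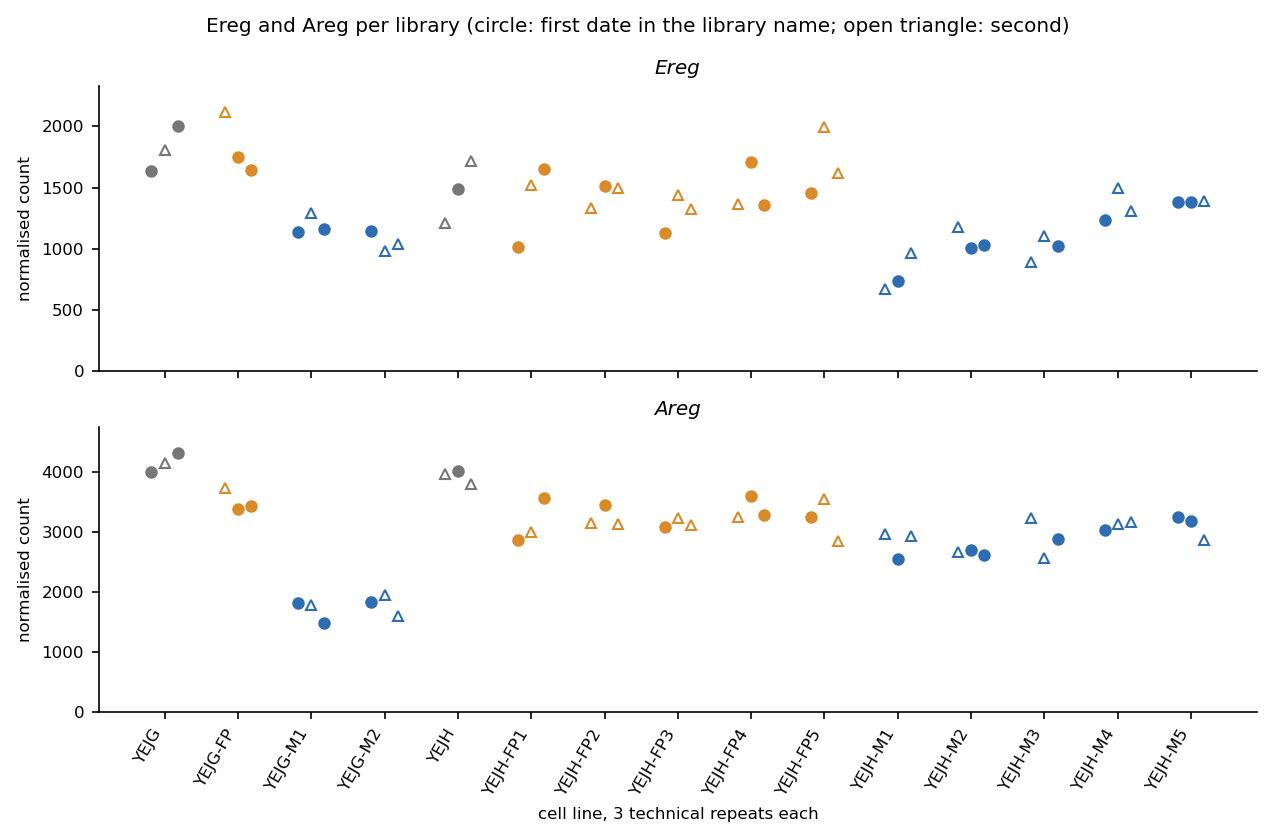
Normalised counts of *Ereg* (top) and *Areg* (bottom) in every library (y axis, linear from 0) by line (x axis), with filled circles for libraries of the first date in the library name and open triangles for the second. Colours mark parental (grey), fat-pad (orange) and lung (blue) lines. The repeats of YEJH-M1 had 674.5 to 965.4 for *Ereg*, among the lowest libraries, and the 6 libraries of the YEJG lung lines had the lowest *Areg* values (1489 to 1940).

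By parental origin, the 3 YEJG-derived lines were compared with the 10 YEJH-derived lines with site in the model. All receptors tested were lower in YEJG-derived lines in this fit, as were all ligands tested except *Egf* and *Ereg*. The 2 YEJG lung lines lay below all YEJH-derived lines for each of these genes. YEJG-FP did so for *Erbb2*, *Erbb3* and *Tgfa* alone. Its *Areg* (3512 normalised counts) lay above all YEJH-derived lines, and its *Egfr* (1377), *Hbegf* (2395) and *Btc* (186) lay within their range. Of the 9 genes 8 differed at an adjusted p under 0.05 (edgeR), 7 lower and 1 higher. Over all genes 42.3% differed, 21.4% lower and 20.9% higher, so many genes beyond these separated the 2 sets of lines. The YEJG-derived set includes the 2 YEJG lung lines, which lay outside the other 13 lines for 29.5% of 16361 genes. Scaled by library totals alone, the comparison of origins gave 3726 genes higher and 2804 lower, against 3144 and 3223 with the main scaling.

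*Erbb3* had the largest decrease, with a log2 difference of -1.22 (SE 0.19, edgeR adjusted p = 0.00031). *Egfr* was lower by a log2 difference of -0.82 (SE 0.20, adjusted p = 0.0055) and *Erbb2* by -0.50 (SE 0.092, adjusted p = 0.00093). Among ligands *Tgfa* had -1.07 (SE 0.17, adjusted p = 0.00032), *Btc* -0.77 (SE 0.19, adjusted p = 0.0058), *Areg* -0.39 (SE 0.13, adjusted p = 0.027) and *Hbegf* -0.25 (SE 0.056, adjusted p = 0.0030). *Egf* was higher, with a log2 difference of 1.38 (SE 0.17, adjusted p = 6.75e-05). *Ereg* had 0.13 (SE 0.14, adjusted p = 0.500).

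The calls for *Areg* and *Hbegf* depended on single lines or libraries. For *Areg* the adjusted p rose to 0.175 without YEJG-M1, to 0.155 without YEJG-M2, to 0.076 in libraries of the second date and to 0.069 without site in the model. For *Hbegf* it rose to 0.073 in libraries of the second date and to 0.132 without repeat 3. The other 6 calls held in every alternative in which the gene was tested.

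The difference between sites was also compared between origins, as the interaction of site and origin. It passed the test for 6 of 9 genes, all with lower values on the lung side of YEJG than the YEJH lines gave. Over all genes 15.5% passed, 7.86% in this direction and 7.61% in the other. The log2 term was -1.29 (SE 0.15, edgeR adjusted p = 0.00039) for *Egfr*, -1.05 (SE 0.22, adjusted p = 0.0081) for *Erbb3* and -1.09 (SE 0.11, adjusted p = 0.00014) for *Tgfa*. For the ligand genes of chromosome 5 it was -0.86 (SE 0.099, adjusted p = 0.00033) for *Areg*, -1.02 (SE 0.24, adjusted p = 0.014) for *Btc* and -0.31 (SE 0.28, adjusted p = 0.511) for *Ereg*. *Hbegf* passed narrowly at -0.27 (SE 0.083, adjusted p = 0.046), and this call was lost in 11 of 15 alternatives. *Btc* lost its call in libraries of the first date (adjusted p = 0.051) and without YEJG-M1 (adjusted p = 0.064). *Erbb2* had -0.37 (SE 0.16, adjusted p = 0.132), which passed without YEJG-M2 at -0.57 (adjusted p = 0.014), and *Egf* 0.20 (SE 0.38, adjusted p = 0.764). The YEJG side of this term rests on 1 fat-pad line.

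**Figure D4:**
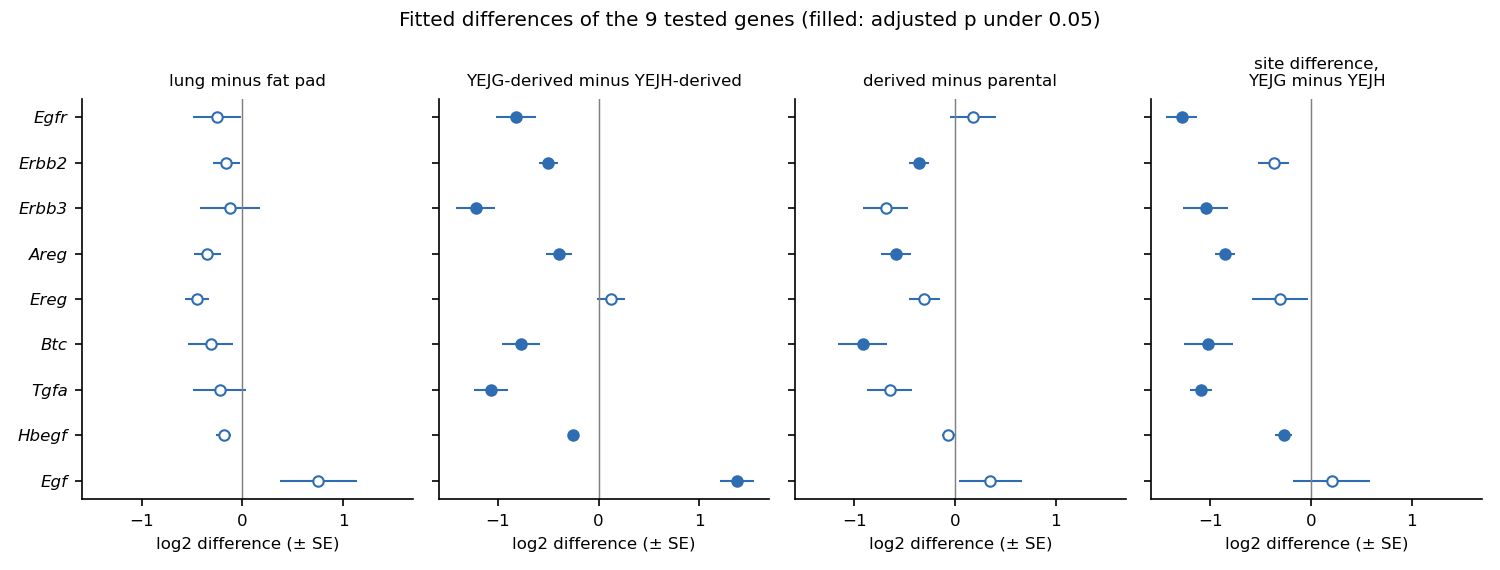
Fitted log2 differences (x axis, bars are SE) of the 9 tested genes (y axis) in the 4 comparisons of lines. Filled points have an adjusted p under 0.05, which holds for 0 genes between sites, 8 between origins, 3 between derived and parental lines and 6 for the site difference of YEJG minus that of YEJH.

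One fit of the 6 groups of origin and site gave direct contrasts of these lines, added after seeing the data, in which the lone lines are assumed to vary like the rest. Against YEJG-FP, the 2 YEJG lung lines were lower for 6 of 9 genes, beside 18% of all genes called, 8.35% lower and 9.62% higher. *Egfr* was lower by a log2 difference of -1.26 (SE 0.13, edgeR adjusted p = 0.00012), *Tgfa* by -1.06 (SE 0.097, adjusted p = 4.88e-05) and *Areg* by -0.99 (SE 0.087, adjusted p = 3.62e-05). *Btc*, *Erbb3* and *Hbegf* were lower by -1.09, -0.92 and -0.36. *Ereg* had -0.68 (SE 0.24, adjusted p = 0.075) and was called in 6 of 23 alternatives, and *Erbb2* had -0.40 (SE 0.14, adjusted p = 0.067) and was called in 4. The *Hbegf* call was lost in libraries of the first date and without repeat 3.

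YEJG-FP against the 5 YEJH fat-pad lines gave 3 calls of 9, 2 lower and 1 higher, beside 14.1% of all genes, 8.64% lower and 5.49% higher. *Tgfa* was lower by a log2 difference of -0.46 (SE 0.091, edgeR adjusted p = 0.0069) and *Erbb3* by -0.63 (SE 0.19, adjusted p = 0.042), and *Egf* was higher by 1.22 (SE 0.31, adjusted p = 0.021). *Egfr* had -0.11 (SE 0.12), *Areg* 0.096 (SE 0.079) and *Btc* -0.19 (SE 0.20). The *Tgfa* call was lost in libraries of the second date, the *Erbb3* call in 10 of 23 alternatives and the *Egf* call in 6.

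Sums of mammary epithelial, fibroblast, basal, lung epithelial and endothelial markers put both YEJG lung lines outside the range of the YEJH-derived lines. Leukocyte and adipocyte sums overlapped that range. The 6 mammary epithelial markers summed to 3592 and 3642 CPM in the YEJG lung lines, against 7645 to 10370 in the YEJH-derived lines. The 6 fibroblast markers summed to 15.4 and 57.0 against 2.59 to 6.05, with *Lum* at 0 in every library. Among them *Pdgfra* had the highest mean, 25.6 CPM against 3.63, whereas *Dcn* had 0.11 against 0.086. Basal markers summed to 137 and 149 against 209 to 487, almost all of it *Krt14*, whereas *Acta2* of the same list averaged 3.93 CPM against 0.025. Leukocyte markers summed to 3.47 and 6.83 against 2.64 to 5.26 with *Cd3e* at 0. Endothelial markers summed to 0.022 and 0.051 against 0.198 to 0.816, and adipocyte markers to 0.029 and 0.065 against 0.021 to 0.093. Lung epithelial markers summed to 1.74 and 15.04 against 18.6 to 53.7, with *Sftpc* and *Sftpb* at 0. The part of these markers in the levels of the receptor and ligand genes was not tested.

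Promoter windows are shown for 4 of the genes that were lowest in the YEJG lung lines and passed the test of site by origin. The windows are from RefSeq on GRCm38.p6 and hold 250 bases before and 50 bases after a start site. Of the 10 genes 7 had a window, and *Erbb3*, *Ereg* and *Hbegf* did not. Capitals mark matches on either strand to the cyclic AMP response element TGACGTCA, the AP-1 site TGANTCA, the TATA box TATAAA and the GC box GGGCGG. No marked matches overlap, and the response element does not contain the AP-1 letters.
*Areg* (chr5:91139349-91139648, forward strand): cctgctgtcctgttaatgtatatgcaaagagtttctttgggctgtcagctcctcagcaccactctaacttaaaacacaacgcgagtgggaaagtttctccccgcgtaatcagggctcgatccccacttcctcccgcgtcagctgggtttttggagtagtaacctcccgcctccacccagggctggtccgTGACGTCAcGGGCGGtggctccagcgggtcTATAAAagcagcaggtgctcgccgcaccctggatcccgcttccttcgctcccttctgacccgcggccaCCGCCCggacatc
*Btc* (chr5:91402945-91403244, reverse strand): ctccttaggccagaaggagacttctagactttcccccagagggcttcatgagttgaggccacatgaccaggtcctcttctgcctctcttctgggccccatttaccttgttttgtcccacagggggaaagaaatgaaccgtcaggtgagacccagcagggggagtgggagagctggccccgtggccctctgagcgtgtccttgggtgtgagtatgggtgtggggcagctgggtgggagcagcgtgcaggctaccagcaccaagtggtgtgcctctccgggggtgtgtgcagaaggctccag
*Tgfa* (chr6:86194972-86195271, forward strand): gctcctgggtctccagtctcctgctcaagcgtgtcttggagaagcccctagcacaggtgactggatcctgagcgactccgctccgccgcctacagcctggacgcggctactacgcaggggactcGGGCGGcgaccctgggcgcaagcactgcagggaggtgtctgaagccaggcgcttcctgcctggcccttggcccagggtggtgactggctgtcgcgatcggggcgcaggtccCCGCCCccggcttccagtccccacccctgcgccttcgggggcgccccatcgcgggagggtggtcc
*Egfr* (chr11:16751953-16752252, forward strand): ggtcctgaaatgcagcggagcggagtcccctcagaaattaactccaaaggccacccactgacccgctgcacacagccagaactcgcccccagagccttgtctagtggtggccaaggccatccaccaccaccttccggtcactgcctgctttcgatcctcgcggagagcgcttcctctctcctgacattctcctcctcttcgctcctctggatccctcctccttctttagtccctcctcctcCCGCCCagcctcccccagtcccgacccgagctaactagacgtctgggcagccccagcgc
*Areg* was the sole gene of the 7 whose window held the cyclic AMP response element, at position -61 from the start site, with the TATA box at -31. The element was in 1.79% of all 32851 windows and the TATA box in 13.6%. GC boxes, found in 35.7% of windows, were in the *Areg*, *Tgfa* and *Egfr* windows and not in the *Btc* window, and the AP-1 letters, found in 7.81% of windows, were in none of the 7. These matches describe letters in a window and were not read as sites in use.

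*Ereg*, *Areg* and *Btc* lie in a row on chromosome 5 with the ligand gene *Epgn*. On GRCm39 *Epgn* spans 91175323 to 91183074, *Ereg* 91222157 to 91241505 and *Areg* 91287451 to 91296291 on the forward strand, and *Btc* spans 91505120 to 91550883 on the reverse strand. The gap is 39082 bases between *Epgn* and *Ereg*, 45945 between *Ereg* and *Areg* and 208828 between *Areg* and *Btc*. These neighbours did not share 1 pattern. In the YEJG lung lines *Areg* and *Btc* lay below every other line and *Ereg* did not. Within the YEJG origin *Ereg* was lower there too, at 1197 and 1059 normalised counts against 1835 in YEJG-FP and 1815 in parental YEJG.

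Within the 10 YEJH-derived lines *Areg* and *Ereg* varied together, and the 3 receptors varied together. Pearson's r of log2 normalised counts over the 10 lines was 0.81 between *Areg* and *Ereg* and 0.80 between *Areg* and *Hbegf*. Among receptors it was 0.76 between *Erbb2* and *Erbb3*, 0.65 between *Egfr* and *Erbb2* and 0.64 between *Egfr* and *Erbb3*. Between the receptor *Erbb3* and *Ereg* it was -0.81. YEJH-M1 shows both ends, with the highest *Erbb3* (1345) and the lowest *Ereg* (791) of the YEJH-derived lines. These values are a description over 10 lines of 1 origin that share libraries and their scaling. The lines pool both sites, and every YEJH lung line lay below every YEJH fat-pad line for *Areg*. Repeat 2 of YEJH-M3 had the highest share of reads not counted on a gene, 43.3%. It held 1875 normalised counts for *Egfr* and 1257 for *Erbb2*. The other repeats of YEJH-M3 had 1464 and 1564 for *Egfr* and 958 and 856 for *Erbb2*. Values of r within a site or without this library were not computed.

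The derived lines were next compared with the parental lines, 13 against 2, with origin in the model. Of the 9 genes 3 were lower in derived lines and none higher (edgeR adjusted p under 0.05), beside 7.74% of all genes, 4.23% lower and 3.51% higher. Scaled by library totals alone, 515 genes were lower and 726 higher, against 692 and 575 here. *Btc* was lower by a log2 difference of -0.92 (SE 0.24, adjusted p = 0.036), *Areg* by -0.59 (SE 0.15, adjusted p = 0.032) and *Erbb2* by -0.36 (SE 0.10, adjusted p = 0.049). For *Areg* both parental lines, with 3923 and 4148 normalised counts, lay above all 13 derived lines, of which YEJG-FP with 3512 was highest. For *Btc* the parental values of 257 and 322 also lay above every derived line, the highest being 243 in YEJH-M4. Separation of both parental lines from all derived lines was found for these 2 of the 9 genes and for 8.07% of all genes. Parental YEJH had the highest *Erbb2* of all lines, whereas parental YEJG with 918 lay among the derived lines.

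With 2 parental lines these calls were fragile. Without parental YEJG none of the 3 held and 162 genes differed in all, and in libraries of the second date none held and 726 genes differed. The *Erbb2* call was lost in 18 of 27 alternatives, the *Btc* call in 10 and the *Areg* call in 6. *Erbb3* and *Tgfa*, with -0.69 (adjusted p = 0.080) and -0.65 (adjusted p = 0.089), were called in 4 of 27 alternatives, among them DESeq2 and the fit with the libraries kept apart.

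*Egfr* was the receptor gene with more reads in most derived lines than in its parental line. The log2 difference between derived and parental lines was 0.18 (SE 0.23, adjusted p = 0.706) over all lines. *Egfr* was called higher in 1 of 27 alternatives, that without the YEJG lung lines, which was added after seeing the data. Parental YEJH had 1089 normalised counts, below all 10 of its derived lines (1341 to 1634), and parental YEJG had 867 against 1377 in YEJG-FP. Parental YEJH lay outside the range of its 10 derived lines for 4 of 9 genes, below for *Egfr* and above for *Erbb2*, *Areg* and *Btc*, beside 34.0% of all genes. In the fit of 6 groups, YEJH-derived lines against parental YEJH gave 1 call of the 9, beside 2.68% of all genes, 1.59% lower and 1.09% higher. *Areg* was lower by a log2 difference of -0.35 (SE 0.074, edgeR adjusted p = 0.027), and *Egfr* had 0.41 (SE 0.12, adjusted p = 0.105). The *Areg* call was lost in libraries of the first date, without repeat 1 and without YEJH-FP1. *Egfr* was called higher in 4 of 23 alternatives, among them DESeq2 and the fit with the libraries kept apart.

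The balance between receptors also differed between lines. The summed receptor level was 13.1 RPKM in YEJG-M1 and 17.3 in YEJG-M2, 26.6 in YEJG-FP, 28.9 and 35.9 in parental YEJG and YEJH, and 29.9 to 37.5 in the YEJH-derived lines. *Erbb3* stood at 0.51 and 0.54 of the *Erbb2* level in the YEJG lung lines, 0.77 in YEJG-FP and 0.90 to 1.14 in the YEJH-derived lines. *Egfr* stood at 0.44 and 0.46 of *Erbb2* in parental YEJG and YEJH, at 0.45 in both YEJG lung lines, and at 0.65 to 0.82 in YEJG-FP and the YEJH-derived lines. The summed ligand level was 147 and 153 RPKM in the YEJG lung lines, 218 to 278 in the other derived lines and 302 to 319 in the parental lines. *Areg* made up 66.7% and 67.7% of the ligand sum in the YEJG lung lines, where *Hbegf* made up 16.6% and 17.4%.

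Other genes of the pathway were read from lists. Between sites 0 of the listed genes passed the test, in the same fit in which 0 genes passed overall. By origin, the ligand sheddases and iRhoms, which release or traffic the ligands, had 3 of 4 lower and none higher, with *Rhbdf2* at a log2 difference of -1.39 (SE 0.20, edgeR adjusted p = 0.00018) and *Adam10* at -0.43 (SE 0.083, adjusted p = 0.0012). The median over the list was -0.33, and 0.013 over all genes. Of 5 other ligands 3 were tested. *Epgn*, which encodes epigen, was lower at -1.87 (SE 0.37, adjusted p = 0.0014), and *Nrg1*, a neuregulin gene, was higher at 0.79 (SE 0.18, adjusted p = 0.0040).

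Of 21 receptor adaptors and core signalling genes 10 were lower and 3 higher in YEJG-derived lines, with a median of -0.14. *Grb2*, which links receptors to RAS, had -0.95 (SE 0.13, edgeR adjusted p = 0.00014) and *Sos2*, a RAS exchange factor, -0.38 (SE 0.058, adjusted p = 0.00026). *Pik3r1*, a PI3K regulatory subunit, had 0.38 (SE 0.086, adjusted p = 0.0033). Of 12 receptor negative regulators 6 were lower and none higher, with a median of -0.26. Among them *Errfi1*, an inhibitor of EGFR kinase, had -0.63 (SE 0.12, adjusted p = 0.0012) and *Rnf41*, a ubiquitin ligase for ERBB3, -0.21 (SE 0.044, adjusted p = 0.0023).

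Of 14 transcripts known to follow ERK signalling 10 were lower and 1 higher, with a median of -0.56. The ERK phosphatase genes *Dusp6* and *Dusp4* had -0.59 (SE 0.066, edgeR adjusted p = 3.55e-05) and -0.89 (SE 0.12, adjusted p = 0.00014). *Fosl1*, an AP-1 subunit gene, was higher at 0.40 (SE 0.099, adjusted p = 0.0060). *Spry2* and *Spry4*, both called lower, are in this list and in that of the negative regulators and count in both. These shares stand beside the 42.3% of all genes that differed by origin.

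**Figure D5:**
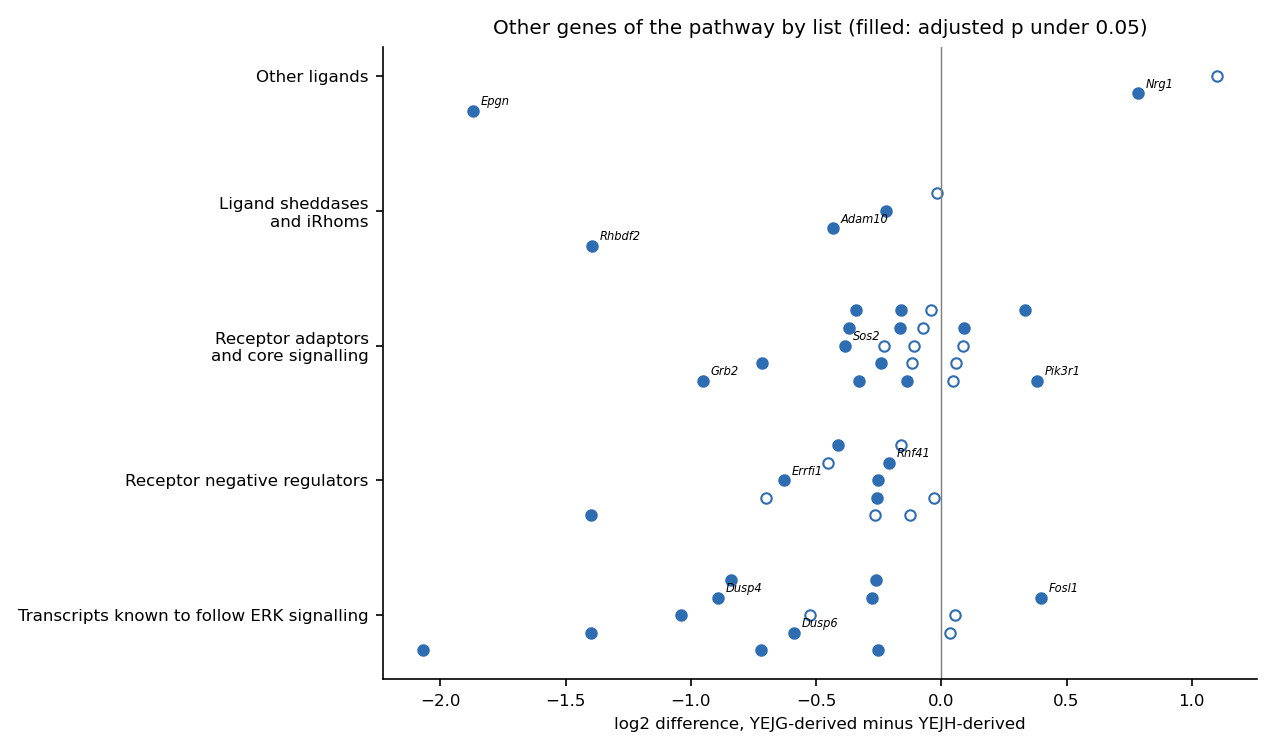
Log2 difference of YEJG-derived minus YEJH-derived lines (x axis) for the tested genes of 5 pathway lists (y axis). Each gene has 1 point in every list that holds it, filled where the adjusted p is under 0.05. A name is given where the text states the gene's value for this comparison. Genes are spread vertically within a list for legibility. The ERK list lies mostly left of 0, with 10 of 14 genes lower and 1 higher.

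For the difference of sites between origins, the calls in the same lists were all lower, beside 15.5% of all genes called and 7.86% lower. They were 1 of 4 sheddases and iRhoms (*Rhbdf2*, -1.14, adjusted p = 0.0038), 2 of 21 adaptors and core signalling genes (among them *Grb2*, -0.82, adjusted p = 0.00081), and 2 of 12 negative regulators (*Spry1*, -1.54, adjusted p = 0.019, and *Rnf41*, -0.22, adjusted p = 0.045). Of the ERK transcripts 4 of 14 were called, led by *Fos* at -1.91 and *Dusp5* at -0.83 (edgeR adjusted p = 0.0044 and 0.0048). Derived against parental lines gave calls for 1 of 4 sheddases and iRhoms, 2 of 21 adaptors and core signalling genes, 1 of 12 negative regulators and 2 of 14 ERK transcripts, beside 7.74% of all genes called and 4.23% lower. They were lower for *Rhbdf2* (-0.91, adjusted p = 0.042), *Gab1* (-1.69, adjusted p = 0.036), *Hras* (-0.38, adjusted p = 0.017), *Rnf41* (-0.18, adjusted p = 0.037), *Dusp4* (-0.73, adjusted p = 0.012) and *Ccnd1* (-0.34, adjusted p = 0.032), and no higher call.

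For each tested gene, the genes whose levels ran most alike over the 15 lines were found by Pearson's r of log2 normalised counts. Among receptors, *Egfr* ran closest to *Bcl10* (0.964), *Malt1* (0.962) and *Lce1g* (0.961). *Erbb2* ran closest to *Inava* (0.977), *Stau2* (0.977) and *Plxnb1* (0.976), and *Erbb3* to *Itga3* (0.989), *Cblc* (0.985) and *Cep170b* (0.984). For the ligand *Tgfa* they were *Tspan14* (0.99), *Rtkn* (0.988) and *Nr4a2* (0.986), and for *Areg* they were *Mindy3* (0.96), *Traip* (0.958) and *Ippk* (0.951). For *Btc* they were *Tusc2* (0.959), *Kctd11* (0.957) and *Rab11fip4* (0.956), and for *Hbegf* *Mex3c* (0.956), *Pkd1l1* (0.947) and *Smad2* (0.941). *Egf* had lower values with *Ramp3* (0.924), *Rspo3* (0.921) and *Arl6ip5* (0.92), and *Ereg* the lowest with *Dnajc11* (0.874), *Ebna1bp2* (0.872) and *Gm4425* (0.87). Of 16360 other genes 623 exceeded 0.9 with *Erbb3*, 611 with *Tgfa*, 172 with *Egfr* and 0 with *Ereg*. The lines share 2 parents, and for every gene but *Ereg* the YEJG lung lines form one end of the range, so these values describe mainly that separation.

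Each line's libraries carried 1 of 2 dates in their names, 22 libraries of the first and 23 of the second, and each line had both. With line in the model *Egfr* was higher in libraries of the second date by a log2 difference of 0.080 (edgeR adjusted p = 0.022), and the other 8 tested genes had adjusted p-values from 0.361 to 0.982. Over all genes 15.9% differed by date, and deviations of libraries from their line's mean had a mean r of 0.575 between lines within a date and -0.57 across dates. The *Egfr* differences between the YEJG lung lines and the other lines were many times this size, and its calls by origin and for site by origin held within each date.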

How the data were processed

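The authors counted reads per gene and deposited a table of raw counts for 54838 mouse Ensembl genes in 45 libraries. Polyadenylated RNA was sequenced with a kit that does not mark strand. The submitters' processing notes name FastQC, HISAT2, SAMtools 1.2 and HTSeq, and a human build beside mouse identifiers. The mouse build is not given in the sources used here. The 5 rows that name no gene were left out of library sizes, and 31.6% to 43.3% of reads per library were not counted on a gene. Of the identifiers 50764 (92.6%) matched GENCODE vM39 on GRCm39, used for names, positions and lengths.

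Repeats were summed per line, since technical repeats are not independent. The mouse of each line is not given, so p-values measure the spread between lines. Tests used edgeR 4.0.16 in R 4.3.3 (filterByExpr, TMM, quasi-likelihood, 2-sided), with Benjamini-Hochberg adjustment over all genes tested and calls at an adjusted p under 0.05. SE was the absolute log2 difference divided by the square root of F. Normalised counts were reads divided by TMM-scaled library size and multiplied by its mean. RPKM used the length of all exons. Site was fitted alone, origin with site, derived against parental with origin. DESeq2 1.42.0 and limma 3.58.1 were alternatives, with other filters and scalings, each date in the library name, each line or repeat left out, and YEJH lines alone. The contrasts of 6 groups and the omission of YEJG lung lines were added after seeing the data. Scripts were tested on simulated data.

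The genes and lists were chosen with earlier results of these data known. Named were all 10 genes, the 2 called genes of each pathway list with the smallest adjusted p in each direction, and the 3 genes most alike to each of the 9 tested. Some listed genes are counted but not reported here by name. Repeat numbers pair nothing by the labels. Same-numbered YEJH lines did not deviate together (mean r of -0.028).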

Additional observations from a re-analysis of the deposited data

Results flagged for a closer look

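The difference between lung and fat-pad lines differed between the origins for 6 of the 9 tested genes, by the interaction of site and origin (edgeR adjusted p under 0.05). The log2 terms, YEJG minus YEJH, were -1.29 for *Egfr*, -1.05 for *Erbb3*, -1.09 for *Tgfa*, -0.857 for *Areg*, -0.272 for *Hbegf* and -1.02 for *Btc*. On the YEJG side each rests on 2 lung lines and 1 fat-pad line, and 15.5% of all genes passed the same test. The *Hbegf* call was lost in 11 of 15 alternatives and the *Btc* call in 2. Markers of mammary epithelium and fibroblasts also separated the YEJG lung lines, and their part in these terms was not tested. For the 9 genes in each of 2 groups of 5 lines, YEJH fat pad and YEJH lung, 0 of 18 sets of values held a line far from the rest by Dixon's gap, where chance gives about 1 in 20.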

How the results depend on the processing

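Of 1473 values for single genes recomputed under the alternatives, 1354 kept direction and side of the threshold, 75 lost a call, 26 gained one and 18 turned sign. The cause was not tested. For lung against fat pad, DESeq2 called 22 genes, libraries of the first date 1, the fit with origin 3 and YEJH lines alone 7, and 0 of the 9 in each. With the repeat number as replicate block and libraries kept apart, 82 genes were called for site, 2856 for derived against parental (5 of the 9), 3481 for YEJG-FP against YEJH fat pad and 1504 for YEJH-derived against parental (2). With the line number as block in YEJH lines 0 genes were called. The labels do not say that these numbers pair samples, and whether same-numbered lines share a mouse is not given. The block therefore gives no separate evidence. Derived against parental gave 2050 genes and 5 of the 9 by DESeq2, and 726 and 0 on the second date. YEJG-FP against YEJH fat pad gave 1 of the 9 on the first date, and 0 with 1326 genes on the second. YEJH-derived against parental gave 1003 genes and 2 of the 9 by DESeq2, 273 and 0 on the first date and 276 genes on the second.

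Leaving out 1 line or repeat gave 0 to 1 genes for site (0 of the 9), 4783 to 6923 by origin (7 to 8), 162 to 2266 for derived against parental (0 to 5, lowest without parental YEJG, highest without parental YEJH), 1634 to 2791 for site by origin (4 to 7), 1956 to 3349 for YEJG lung against YEJG-FP (5 to 8), 1746 to 2756 for YEJG-FP against YEJH fat pad (1 to 3), and 193 to 1019 for YEJH-derived against parental (0 to 2, fewest genes without repeat 1 and most without repeat 3).

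Signs turned for small differences. Between sites *Erbb3* became 0.0325 without YEJG-M1 and 0.0117 without YEJG-M2, and was -0.233 without YEJH-M1. Its lowest value over all alternatives was -0.27. In YEJH lines alone *Egfr*, *Erbb3* and *Tgfa* were 0.00862, 0.108 and 0.0088, and with the line-number block 0.00843, 0.0994 and 0.00624. By origin in lung lines *Ereg* was -0.00271. For derived against parental, *Egf* was -0.331 and *Hbegf* 0.0234 without YEJG, and *Egfr* was -0.053 without YEJG-FP and -0.0703 without YEJH. *Egf* was -0.169 without repeat 1, and *Hbegf* 0.0132 without the YEJG lung lines. The highest value of *Egf* was 1.28 and the lowest of *Hbegf* -0.166, both without YEJH. *Egfr* was 0.416 without YEJG, and its highest value over all alternatives was 0.49. *Hbegf* was 0.00502 on the second date for YEJG-FP against YEJH fat pad and -0.00749 for YEJH-derived against parental, where *Egf* ran from -0.905 without repeat 1 to 0.31 without repeat 3. Site by origin could not be fitted without YEJG-FP.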

Other observations

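Over the 10 YEJH-derived lines, *Tgfa* and *Ereg*, both ligands of EGFR, ran in opposite directions (Pearson's r of -0.75), whereas over all 15 lines r was 0.14. *Erbb2* with *Tgfa* had an r of 0.73 over the 10 lines, and *Areg* with *Btc*, its neighbour on chromosome 5, had 0.41. These are descriptions over lines of both sites that share a parent, with repeat 2 of YEJH-M3 included. The dependence of *Egf* on few reads limits every value given for it, since no library held more than 22 reads of this gene.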
